A study of Mus musculus with 444 samples.

Results

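The respiratory chain of the inner mitochondrial membrane is built from 2 genomes, and both were read in single mouse mammary epithelial cells. The set described here held 47 genes of the 27179 in the count tables: 13 encoded on the mitochondrial genome (the mt members, which are all of its protein-coding genes) and 34 encoded in the nucleus (the nuclear members). They were chosen by name for complexes I to V, with no measured value in the rule, and each was found by its NCBI gene number. The donors were FVB/NJ mice, inbred and with no genetic change or treatment named in the labels, and their mammary cells were taken at the stages labelled Puberty and Adult (the labels give no age). Sorted total epithelium was captured on the Fluidigm C1, a microfluidic chip with 1 reaction chamber per cell, and polyadenylated RNA was sequenced as read pairs. Mice were pooled for each sort, and the labels tie no cell to a mouse, sort or chip. Each stage was therefore 1 sample made of many cells, and no test was run. Intervals on levels and ratios below cover the counting error of read pairs only. Intervals on shares of cells treat the cells of 1 sample as independent draws. Neither kind covers the spread between mice, sorts or chips. The protocol added no molecular identifiers, so copies made in amplification were counted too.

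Complexes I, III and IV pass electrons along and pump protons, complex II feeds electrons in without pumping, and complex V (ATP synthase) uses the proton gradient to make ATP. Complex II is nuclear in full, whereas the other complexes mix subunits from both genomes, so that their assembly needs products of both. Mitochondrial genes are copied from either strand as long transcripts that are cut into shorter RNAs, most of them polyadenylated. Each nuclear subunit has its own promoter instead. In the mammary gland the ducts have an outer basal (myoepithelial) layer and an inner luminal layer of progenitor and hormone-sensing mature cells.

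Of 444 cells, those retained had at least 100000 read pairs and 1500 detected genes among the 25171 nuclear genes left after mitochondrial, ribosomal protein and unannotated genes were set aside: 171 of 221 pubertal and 152 of 223 adult cells. Retained cells had between 118429 and 1456360 read pairs. Levels are given as CPM, counts per 1000000 read pairs on those 25171 genes after each cell was thinned to 100000 of them, so that 1 read pair is worth 10 CPM and the mitochondrial reads cannot change a nuclear level. On this scale the mt members of a cell may sum to more than the nuclear total. Adult cells numbered 48 to 188 in their titles (107 retained) stood apart from the other 45 adult cells in Rn7sk, a small nuclear RNA, which had a read in 104 of 107 against 4 of 45 (25 of 171 in puberty). Results are therefore given against each adult set as well. Fibroblast, endothelial, immune or erythroid marker genes summed to 1000 CPM or more in 25 pubertal and 22 adult cells, and the stage ratios were also taken without these cells.

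Part of the mitochondrial genome has a near-perfect copy in the nucleus, which bears on which mt members could be counted. The GENCODE annotation of GRCm38 (the assembly also called mm10) holds 7 pseudogenes side by side on the minus strand of chr1:24611535-24616197 that match 7 mt members with 2 mismatches in all. They cover mt-Co2, mt-Atp6, mt-Co3, mt-Nd3 and mt-Nd4l almost whole, the first 876 bases of mt-Nd4 and the last 483 bases of mt-Co1. The place of mt-Atp8 lies inside this stretch without an annotated transcript. None of the pseudogenes was found by name among the 25275 of 27179 gene identifiers of the count tables that could be named. The other identifiers could not be searched. The share of 75-base windows that occur unchanged in another gene's transcripts was 99.9% for mt-Co3, 99.5% for mt-Co2 and mt-Atp6, 98.7% for mt-Nd4l, 97.8% for mt-Nd3, 61.5% for mt-Nd4 and 39.8% for mt-Co1. It was 5.71% for mt-Nd2, 1.66% for mt-Nd5, and 0% for mt-Nd1, mt-Nd6, mt-Cytb and mt-Atp8. How the aligner was set to treat reads with 2 equally good places was not given in the sources used here.

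The 2 shortest mt members are shown whole, because both lie in the copied stretch and also end inside the next reading frame, which is a second limit on their counts. Capitals mark the bases shared with the next gene, which are 43 for mt-Atp8 with mt-Atp6 and 7 for mt-Nd4l with mt-Nd4, from chrM:7766-7969 and chrM:9877-10173 on the plus strand of GRCm38.
mt-Atp8: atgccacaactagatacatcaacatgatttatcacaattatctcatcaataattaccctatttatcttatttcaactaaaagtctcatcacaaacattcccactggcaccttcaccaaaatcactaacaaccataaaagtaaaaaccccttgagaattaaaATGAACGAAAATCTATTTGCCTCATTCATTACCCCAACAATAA
mt-Nd4l: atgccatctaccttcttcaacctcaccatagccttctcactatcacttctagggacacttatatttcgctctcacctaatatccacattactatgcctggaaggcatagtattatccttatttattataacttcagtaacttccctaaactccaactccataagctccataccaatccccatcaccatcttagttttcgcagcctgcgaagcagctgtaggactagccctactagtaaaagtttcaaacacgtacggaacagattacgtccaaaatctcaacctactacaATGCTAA

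The nuclear members have separate promoters, and one motif among them is that of NRF1, a nuclear factor known to bind promoters of respiratory genes. RefSeq promoter windows (250 bases before to 50 after the start, GRCm38.p6) were at hand for 24 of the 34 nuclear members. The core of the NRF1 motif, searched on both strands as GCGC, an A, any base and GCGC (on the other strand GCGC, any base, a T and GCGC), was in the windows of 5 of these 24 genes (20.8%), against 5.19% of all 27025 genes with a window and 12.5% of those that reached 20 CPM in a stage. A match is a string of letters and not a measured site. The Sdha and Uqcrc1 windows held it more than once and are shown around the matches, which are in capitals, from chr13:74350191-74350398 (minus strand) and chr9:108936593-108936697 (plus strand).
Sdha: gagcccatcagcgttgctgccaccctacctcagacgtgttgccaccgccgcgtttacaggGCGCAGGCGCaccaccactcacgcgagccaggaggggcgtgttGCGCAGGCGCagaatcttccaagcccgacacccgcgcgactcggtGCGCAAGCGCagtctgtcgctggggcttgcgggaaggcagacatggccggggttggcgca
Uqcrc1: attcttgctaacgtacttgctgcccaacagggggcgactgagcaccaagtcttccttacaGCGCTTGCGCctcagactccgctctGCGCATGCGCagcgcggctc

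The mt members took a median of 6.80% of all read pairs in pubertal cells, with a range of 0.589% to 63.9%, and a median of 8.56% in adult cells, with a range of 1.60% to 42.2%. The quartiles were 4.38% and 9.91% in puberty and 5.82% and 15.0% in the adult, so the stages overlapped over most of their range. The median was 8.68% in adult cells 48 to 188 and 8.12% in the other adult cells. The mt members took more than 20% of the read pairs in 15 of 171 pubertal cells (8.77%, exact 95% interval 4.99 to 14.1). They did so in 24 of 152 adult cells (15.8%, 10.4 to 22.6). The 2 mitochondrial ribosomal RNAs are not in these shares. These shares describe cells that passed the minimums on nuclear genes: among cells that failed them but had 1000 read pairs or more, the median mt share was 60.9% in 38 pubertal and 51.9% in 56 adult cells.

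On the nuclear CPM scale the mt set summed to a median of 77910 CPM per cell in puberty and 103070 CPM in the adult. Over all retained cells of a stage its mean level was 142234 CPM (95% Poisson interval 142055 to 142412) and 165543 CPM (165339 to 165748), a log2 ratio of puberty over adult of -0.22. The single highest pubertal cell held 9.53% of the pubertal sum. The ratio was -0.23 against adult cells 48 to 188 and -0.20 against the other adult cells. It was -0.40 between the medians and -0.56 in cells with at least 200000 read pairs and 2500 genes, but -0.11 without the cells that carried markers of other cell types. No replicate spread exists to set these against.

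The nuclear set was closer between the stages. Its median per cell was 9340 CPM in puberty (range 390 to 39840) and 9990 CPM in the adult (range 100 to 25920). The log2 ratio of the stage means was -0.08 (-0.09 to -0.07), at -0.07 and -0.12 against the 2 adult sets. Scaling by edgeR's TMM factors in place of the totals shifted the stage ratio of every level by -0.12, to -0.34 for the mt set and -0.21 for the nuclear set. Any ratio above 0 by less than that shift falls below 0 under it. The mt set over the nuclear set within a cell had a median of 7.92 in puberty and 10.0 in the adult. The ratio of these ratios was -0.13 on the log2 scale by stage sums (-0.14 to -0.12) and -0.34 by medians.

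**Figure D1:**
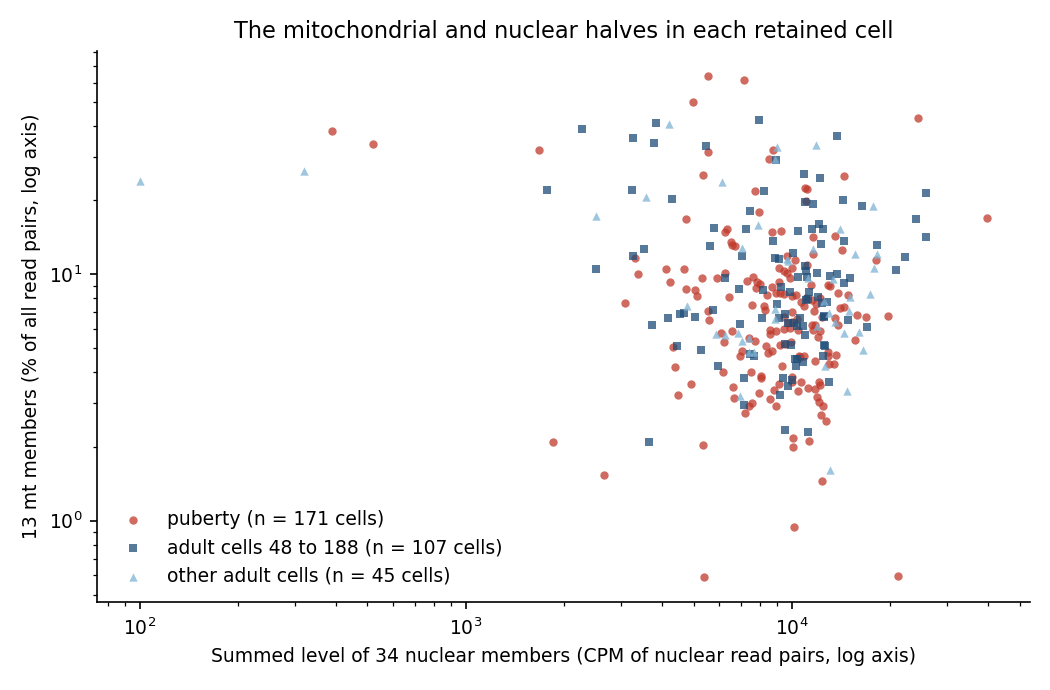
Each point is a retained cell, with the summed level of the 34 nuclear members (CPM, log axis) against the percent of all read pairs on the 13 mt members (log axis), in 171 pubertal, 107 adult 48 to 188 and 45 other adult cells. The 3 sets of cells lie over each other, and 4 cells at the left have under 1000 CPM on the nuclear members.

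Across cells the mt and nuclear sets were weakly related. Spearman's rho between them was -0.13 over the 171 pubertal cells and -0.07 over the 152 adult cells, with Pearson's r on log2 levels at -0.21 and -0.22. The adult rho was 0.01 in cells 48 to 188, -0.17 in the others and 0.07 with the stricter minimums. By the marker classes defined further on, rho ran from -0.39 (basal-led) through -0.23 (mature luminal-led) to 0.29 (luminal progenitor-led) in puberty and from -0.11 to 0.09 in the adult. Cells share a library protocol, and both sets share the nuclear total as denominator, so this is a description with no p-value. The mt set fell with the number of nuclear read pairs in a cell (rho -0.40 in puberty and -0.60 in the adult), which is in its denominator. It rose with Malat1, a nuclear long non-coding RNA (rho 0.36 and 0.35). Neither the part of depth nor that of Malat1 was tested.

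Within each set the picture differed. All 78 pairs of mt members were positively correlated in either stage, with a median rho of 0.62 in puberty and 0.66 in the adult. The 561 pairs of nuclear members had a median rho of 0.12 in puberty and 0.13 in the adult, with 516 and 515 of them above 0. The medians of the mt and nuclear pairs are not like for like. All mt counts of a cell share a divisor outside the mt set, its nuclear total, which can raise their rho. The nuclear members are parts of that total and many had few reads, which can lower theirs. The part of this in the contrast was not tested. Between mt and nuclear members the median rho over 442 pairs was -0.09 in puberty and -0.08 in the adult. The summed nuclear members followed the nuclear subunits of ATP synthase, a list outside the set, with a rho of 0.56 in puberty and 0.30 in the adult.

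The mixture of transcripts inside the mt set differed between the stages in 2 abundant genes. mt-Co1, which encodes the catalytic core of complex IV, took a median of 28.6% of the 13 members' read pairs in pubertal cells (range 3.90% to 53.0%) and 19.1% in adult cells (range 1.82% to 47.5%). The median was 18.9% in adult cells 48 to 188 and 19.4% in the other adult cells. mt-Cytb, the only mitochondrially encoded subunit of complex III, took a median of 35.1% in puberty (range 3.59% to 59.6%) and 40.2% in the adult (range 18.3% to 56.6%), with 40.7% and 39.3% in the 2 adult sets. Ranges overlapped for both genes, and so did the spans between quartiles (for mt-Co1 23.1% to 35.2% of pubertal, 14.3% to 25.0% of adult mt reads).

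mt-Co1 had more read pairs than mt-Cytb in 60 of 171 pubertal cells (35.1%, exact 95% interval 28.0 to 42.7) and in 9 of 152 adult cells (5.92%, 2.74 to 10.9). The adult count was 7 of 107 in cells 48 to 188 and 2 of 45 in the others. The median ratio of mt-Co1 to mt-Cytb was 0.825 in puberty and 0.492 in the adult. In basal-led cells, defined further on, it was 0.80 and 0.496, in luminal progenitor-led cells 0.863 and 0.551, and in mature luminal-led cells 0.848 and 0.540. The direction was thus the same in each class. With the stricter minimums the median mt-Co1 share was 28.5% in puberty and 21.6% in the adult. Of the 75-base windows, 39.8% of those in mt-Co1 and none in mt-Cytb occur elsewhere, and the part of that difference was not tested.

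**Figure D2:**
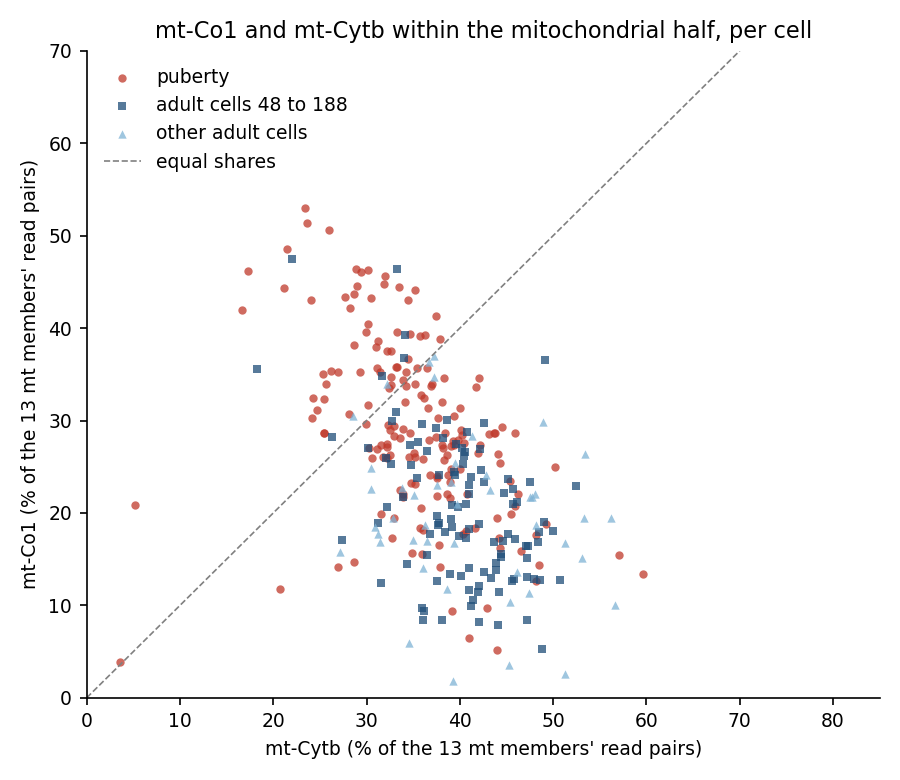
Each point is a retained cell, with mt-Cytb against mt-Co1 as percent of the read pairs on the 13 mt members, and the dashed line marks equal shares. Above the line lie 60 of 171 pubertal cells and 9 of 152 adult cells.

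Among the complex I genes of the mt set, mt-Nd5 also took more of it in puberty (median 3.93% against 2.92%). mt-Nd4 took less (4.69% against 6.20%), as did mt-Nd2 by a small margin (2.40% against 2.64%). mt-Nd1 was level (17.6% against 17.8%), and so nearly was mt-Nd6 (0.497% against 0.431%), the gene on the other strand. In complex IV, mt-Co3 took a median of 3.40% in puberty and 5.58% in the adult, and mt-Co2 took 0.556% and 0.937%. In complex V, mt-Atp6 took 0.317% and 0.630%.

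Levels per kilobase of gene length set the mt members far apart. Over all retained cells mt-Cytb stood at 42622 CPM per kb in puberty and 58128 in the adult, mt-Co1 at 28833 and 18913, and mt-Nd1, a membrane subunit of complex I, at 23327 and 33777. mt-Co3 followed at 9145 and 15886 CPM per kb, mt-Nd4 at 5056 and 7556, mt-Nd2 at 3392 and 4575, and mt-Nd5 at 3193 and 2698. The order of mt-Co1 and mt-Nd1 thus differed between the stages in these means, with 10.3% of the pubertal mt-Co1 read pairs in 1 cell. mt-Co2 (2010 and 3758), mt-Nd6 (1417 and 1484) and mt-Atp6 (1310 and 2096) came next in puberty. In the adult mt-Co2 stood above mt-Nd5, and mt-Atp6 above mt-Nd6. mt-Atp8 reached 439 and 631 CPM per kb, mt-Nd3 65.7 and 152, and mt-Nd4l 21.5 and 38.3. The copied stretch on chromosome 1 holds mt-Co2, mt-Atp6, mt-Atp8, mt-Nd3 and mt-Nd4l among the genes just named, and among the higher ones mt-Co3 and parts of mt-Nd4 and mt-Co1. The part of the copy in these levels was not tested.

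By level, mt-Co1 was higher in puberty and most other mt members were lower. Per cell, mt-Co1 had a median of 22640 CPM in puberty (lowest 250, highest 784720) and 20505 CPM in the adult (420 to 182370), so the medians were close and the ranges overlapped almost in full. Its log2 ratio of puberty over adult by stage means, with 1 CPM added to each side, was 0.61 (0.60 to 0.61). The value was 0.66 and 0.49 against the 2 adult sets, 0.78 without the cells that carried other markers, 0.39 without thinning, and 0.02 in cells with at least 200000 read pairs and 2500 genes. mt-Cytb had a median of 27630 CPM in puberty (230 to 1031520) and 44275 CPM in the adult (8510 to 365780), a log2 ratio of -0.45 (-0.45 to -0.44).

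Among the complex I genes, mt-Nd1 had a median of 13370 CPM in puberty (1420 to 285630) and 16985 CPM in the adult (1900 to 234380), a log2 ratio of -0.53. mt-Nd2 had medians of 1870 CPM (50 to 56340) and 2635 CPM (120 to 49010), a ratio of -0.43. mt-Nd4 had medians of 3510 CPM (20 to 129540) and 6505 CPM (140 to 55230), a ratio of -0.58. All 3 were thus lower in puberty by median and by mean, with ranges that overlapped.
mt-Nd5 had medians of 2590 CPM (20 to 89040) and 3280 CPM (30 to 52340), yet a ratio of 0.24 by stage means, so the median and the mean pointed opposite ways, and under the stricter minimum the ratio was -0.04. mt-Nd6 had medians of 370 CPM (0 to 11880) and 450 CPM (0 to 5310), with a ratio of -0.07 that became 0.02 against the other adult cells. mt-Nd3 and mt-Nd4l were detected in part of the cells: mt-Nd3 in 75 of the 171 from puberty and 103 of the 152 from the adult, and mt-Nd4l in 41 and 59. mt-Nd3 had a log2 ratio of -1.18 (-1.39 to -1.03), on 391 and 804 read pairs. mt-Nd4l, with 109 and 173 read pairs, did not reach 20 CPM in either stage, and its ratio of -0.75 (-1.20 to -0.48) is imprecise.

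In complex IV, mt-Co2 had a median of 400 CPM in puberty (0 to 31040) and 880 CPM in the adult (10 to 20940), with a log2 ratio of -0.90. mt-Co3 had medians of 2510 CPM (0 to 125130) and 6405 CPM (70 to 139770), with a ratio of -0.80. The pair therefore moved opposite to mt-Co1, the third mitochondrial gene of the same complex. In complex V, mt-Atp6 had medians of 230 CPM (0 to 13570) and 655 CPM (10 to 10690), a ratio of -0.68, and mt-Atp8 had medians of 30 CPM (0 to 1180) and 50 CPM (0 to 1170), a ratio of -0.52. Over the 12 mt members that reached 20 CPM in a stage the median log2 ratio was -0.53, with 2 above 0 and 10 below, and 1 of them (mt-Nd3) was 2-fold lower, where 14.4% of all genes were. With 10 CPM added in place of 1 the mt-Nd3 ratio was -0.94. By the sum over each complex the mt part of complex IV was higher in puberty by the means (0.26) but not by the medians per cell, while those of complexes I, III and V were lower (-0.43, -0.45 and -0.67).

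**Figure D3:**
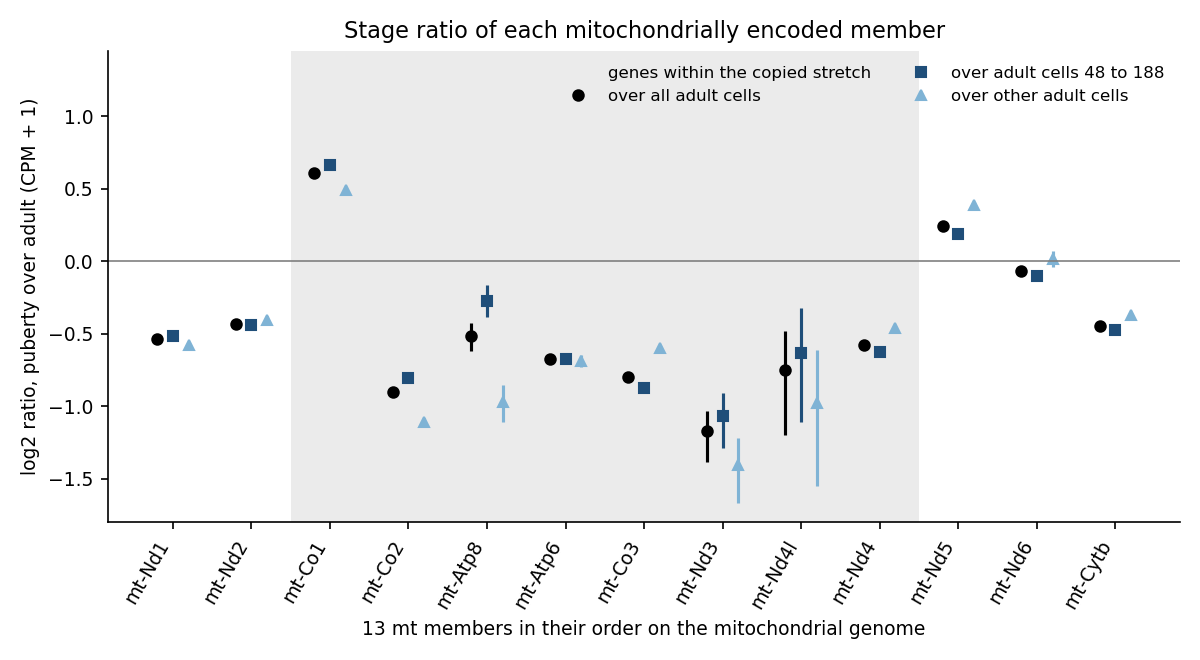
Points are log2 ratios of puberty over adult (CPM with 1 added) for the 13 mt members in genome order, against all adult cells, adult cells 48 to 188 and the other adult cells; lines are 95% counting intervals, and the grey band spans the genes that lie wholly or partly in the copied stretch. mt-Co1 and mt-Nd5 are above 0 in all 3 comparisons, and the 7 other genes of the band are below 0.

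The nuclear members stayed within 2-fold between the stages. Of the 34, 33 reached 20 CPM in a stage (Sdhd did not), and 0 of these were 2-fold higher or lower in puberty than in the adult. Over the 7818 nuclear genes that reached that level, 19.5% were 2-fold higher and 14.4% were 2-fold lower. Genes with few reads spread more, so the same was taken over the 4428 genes whose mean level lay in the range of the 33 members (40.5 to 1435 CPM): 12.9% were 2-fold higher and 9.89% lower. The median log2 ratio was -0.07 over the 33 members, with 13 above 0 and 20 below, and 0.09 over all genes. Against adult cells 48 to 188 it was 0.05, with 18 above 0 and 15 below, so the sign of the median depended on the adult set. The median size of a ratio, without its sign, was 0.31 for the members and 0.52 for the 4428 genes.

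With the adult sets taken apart, the 33 members stayed within 2-fold against cells 48 to 188, but not all of them did against the others. Against adult cells 48 to 188, 0 of the 33 members were past 2-fold, where 25.6% of all genes were higher and 15.5% lower. Against the other 45 adult cells, 4 members were 2-fold higher and 3 were 2-fold lower in puberty, where 27.9% of all genes were higher and 19.9% lower. Between the adult sets, 4 members were 2-fold higher and 5 lower in cells 48 to 188, where 26.3% and 28% of all genes were. The 7 against the other adult cells, named after their values were seen, were Uqcrc2 (1.21), Ndufv1 (1.17), Cox5b (1.12) and Cox5a (1.04) on the higher side and Ndufs1 (-1.77), Cyc1 (-1.17) and Ndufv2 (-1.02) on the lower. Few cells carried some of these values, since 1 of the 45 cells held 70.5% of the Ndufv1 read pairs and 67.2% of those of Cyc1. Some counts are also uncertain because windows of the gene occur unchanged in another gene's transcripts. The share was 22.8% for Uqcrc2, 21.7% for Cox5a, 13.7% for Cox5b and 3.17% for Ndufs1. Ndufv1, Cyc1 and Ndufv2 had no such windows. The part of shared windows in these ratios was not tested.

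**Figure D4:**
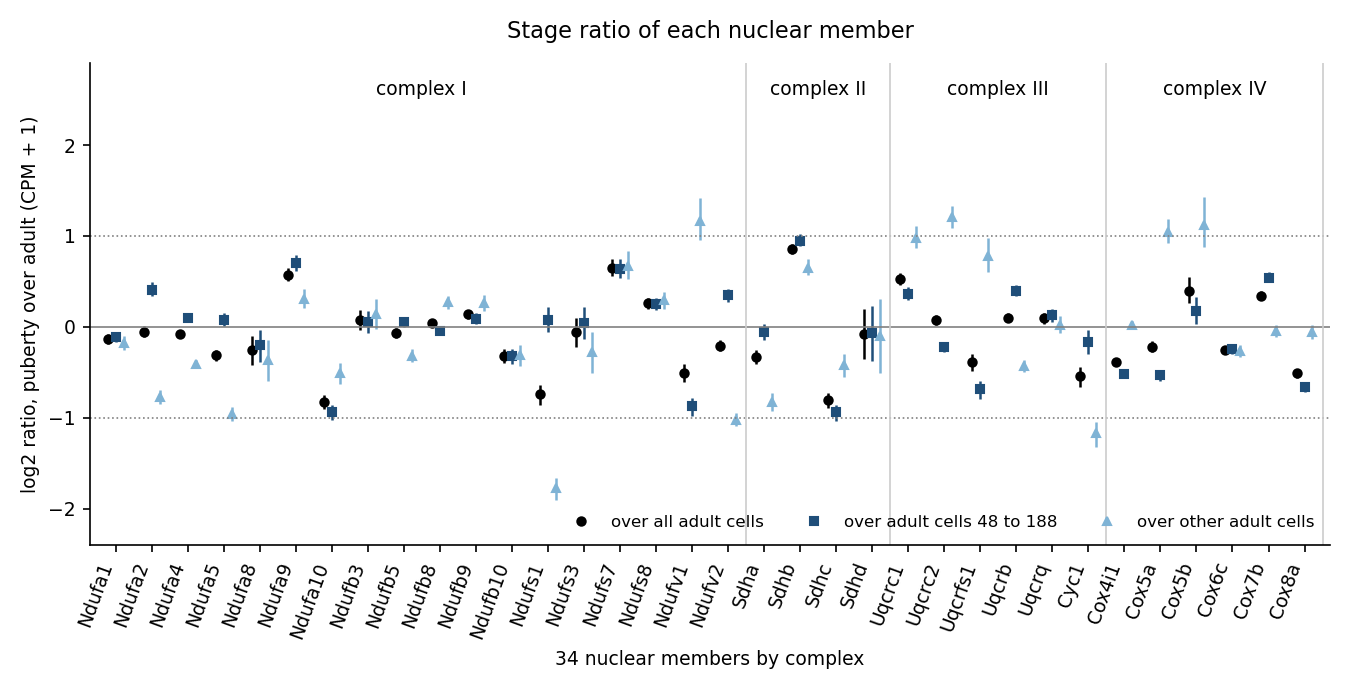
Points are log2 ratios of puberty over adult (CPM with 1 added) for the 34 nuclear members by complex, against all adult cells, adult cells 48 to 188 and the other adult cells; lines are 95% counting intervals and dotted lines mark 2-fold. Against all adult cells every member lies between -0.83 (Ndufa10) and 0.85 (Sdhb).

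Of the nuclear complex I subunits, Ndufa4, now counted by many with complex IV, had the most reads per kilobase, 1825 CPM per kb in puberty and 1921 in the adult. Reads were found in 162 of the 171 cells of puberty and 146 of the 152 adult ones, with medians of 840 CPM (0 to 3930) and 710 CPM (0 to 4490). Its log2 ratio of means was -0.07, with 0.09 and -0.41 against the adult sets, so the sign depended on the adult set and the medians pointed the other way from the means. Ndufs7, an iron-sulfur subunit on the electron path, had a median of 0 CPM in both stages, with a highest cell of 2990 CPM in pubertal and 3720 CPM in adult cells. The share of cells with a read was 48.0% in puberty (82 of 171) and 34.2% in the adult (52 of 152). The log2 ratio was 0.65 (0.56 to 0.75). Ndufa9, an accessory subunit, had medians of 10 and 0 CPM and highest cells of 8900 and 3450 CPM, with a ratio of 0.57 and 21.8% of the pubertal read pairs in 1 cell.
On the lower side, Ndufa10, another accessory subunit, had reads in 79 of the 171 cells of puberty and 54 of the 152 adult ones, with highest cells of 2260 and 5650 CPM and a ratio of -0.83 (-0.91 to -0.75). It was detected in a larger share of pubertal cells (46.2% against 35.5%) although its mean was lower there. Ndufs1, the largest subunit of the peripheral arm, had medians of 0 CPM and highest cells of 1690 and 4120 CPM. Its ratio was -0.74 against all adult cells but 0.08 against adult cells 48 to 188. The 18 nuclear complex I members summed to a median of 4460 CPM per cell in puberty and 4360 in the adult, with a ratio of stage means of -0.06. That ratio was 0.05 against adult cells 48 to 188 and -0.30 against the others, so its sign depended on the adult set.

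In complex II, Sdhb, the iron-sulfur subunit and the member of the complex with the highest level per kilobase (404 CPM per kb in puberty, 223 in the adult), had a median of 100 CPM in puberty (0 to 3730) and 10 CPM in the adult (0 to 3560). Reads were found in 123 of the 171 cells of puberty and 82 of the 152 adult ones, and its log2 ratio was 0.85 (0.80 to 0.92), with 0.95 and 0.65 against the adult sets. Sdhc, a membrane anchor, had medians of 10 CPM (0 to 1350) and 0 CPM (0 to 5240) and a ratio of -0.80, with 1 adult cell holding 17.4% of the adult read pairs. Sdhb was thus higher and Sdhc lower in puberty by the mean, while both were detected in a larger share of pubertal cells (71.9% against 53.9%, and 52.6% against 44.7%). Sdha, the flavoprotein, had a ratio of -0.33, and Sdhd, the other anchor, was detected in 35 and 31 cells at a mean of 13.6 and 14.4 CPM.

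In complex III, Uqcrb, a small accessory subunit, led per kilobase (810 CPM per kb in puberty, 755 in the adult). It had medians of 350 CPM (0 to 1890) and 235 CPM (0 to 2820) and a ratio of 0.10. Since 29.1% of its windows occur unchanged in other genes, mostly a processed pseudogene, its count is uncertain. Uqcrc1, a core subunit, had medians of 20 CPM (0 to 2900) and 0 CPM (0 to 5130), had reads in 103 of the 171 cells of puberty and 65 of the 152 adult ones, and had a ratio of 0.52 (0.46 to 0.59). Cyc1, the cytochrome that hands electrons to cytochrome c, had medians of 0 CPM and highest cells of 1220 and 4580 CPM. Its ratio was -0.54, with 1 adult cell holding 30.8% of the adult read pairs. The 6 nuclear complex III members together had a ratio of 0.09, which is within the TMM shift.

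In complex IV, Cox4i1, a subunit that many cell types use at high level, led per kilobase (1836 CPM per kb in puberty, 2391 in the adult). Reads were found in 170 of the 171 cells of puberty and 146 of the 152 adult ones, with medians of 1000 CPM (0 to 8630) and 1215 CPM (0 to 8020). Its ratio was -0.38 (-0.41 to -0.35), with -0.52 against adult cells 48 to 188 and 0.02 against the others, and 9.09% of its windows occur in a transcript of its neighbour Emc8. The 6 nuclear complex IV members together had a ratio of -0.24, with -0.35 and 0.03 against the adult sets. Its mt members had 0.26 against all adult cells, with 0.28 and 0.22 against the adult sets, so the signs of the nuclear and mt sums differed against all adult cells and cells 48 to 188 but not against the others. By medians per cell both sums were lower in puberty (2590 against 3045 CPM for the nuclear and 25120 against 27635 CPM for the mt members). Ndufa4 was summed with complex I, and its own ratio was -0.41 against the other adult cells. The nuclear complex IV sum was 2834 CPM in puberty and 2767 CPM in those cells, and Ndufa4 was 898 and 1191 CPM. Ndufa4 was thus lower in puberty by more than the sum was higher. Counting Ndufa4 with complex IV would therefore make the nuclear sum lower in puberty against those cells too. The 25 members that reached 20 CPM and are not among the 4 highest or 4 lowest ratios lay between -0.51 and 0.40.

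A cell showed a median of 23 of the 34 nuclear members in puberty (4 to 34) and 20 in the adult (2 to 34) at the common depth. Single members were detected in between 20.5% (Sdhd) and 99.4% (Cox4i1) of pubertal cells. In sparse counts of this kind, a member at 0 in a cell is not shown to be absent from it, since 3 read pairs of 100000 remain possible.

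For lineage, a cell went to the basal, luminal progenitor or mature luminal marker list that led by at least 0.25 in mean standardised level. Levels were standardised over the retained cells of both stages together. Of markers that reached 20 CPM, 9 of 12 basal, 5 of 9 luminal progenitor and 0 of 9 mature luminal were 2-fold lower in puberty. Of all genes, 14.4% were. A class may therefore hold unlike cells in the 2 stages. Since 46 cells lay within 0.1 of the 0.25 lead, the classes are ranges and not types. They held 42, 28 and 76 pubertal cells, 65, 32 and 30 adult cells, and 25 cells of each stage without a lead. The adult sets differed in makeup: 54 of 107 cells numbered 48 to 188 were basal-led against 11 of the 45 others. Krt19, a luminal keratin not used to make the classes, was detected in 63.6% of basal-led, 85% of luminal progenitor-led and 100% of mature luminal-led cells, and Krt18 in 82.2%, 93.3% and 100%. The other check genes set the classes less apart: Krt8 was detected in 90.7%, 93.3% and 100%, and Epcam in 96.3%, 95% and 100%. Many basal-led cells thus carried luminal keratin reads. No doublet caller was run; chambers were inspected by microscope in the study.

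By class the mt set took a median of 5.97% of all read pairs in basal-led, 5.92% in luminal progenitor-led and 7.04% in mature luminal-led pubertal cells. In the adult the medians were 9.70%, 6.96% and 8.84%. The basal-led over all luminal-led ratio of mean mt level was -0.79 on the log2 scale in puberty and 0.25 in the adult, with -0.23 and 0.37 by medians. The adult value was 0.47 in cells 48 to 188 and -0.09 in the 11 and 25 cells of the other set, and the pubertal value was -0.06 when cells were classed by the share of markers detected. Direction and size therefore moved with stage, adult set and class rule. The quartiles of basal-led and luminal-led cells overlapped in both stages (37668 to 105280 CPM against 52790 to 110653 in puberty, 72370 to 180410 against 60165 to 156058 in the adult).

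The nuclear set had medians of 8835 CPM in basal-led, 8470 in luminal progenitor-led and 10070 in mature luminal-led pubertal cells, and 9900, 9200 and 12625 CPM in adult cells. Basal-led over luminal-led cells had a ratio of -0.10 in puberty and -0.13 in the adult. Within the luminal lists, progenitor-led over mature-led adult cells had a ratio of -0.41 for the nuclear and -0.27 for the mt members. Of the 33 nuclear members that reached 20 CPM, 1 was 2-fold higher and 1 lower in basal-led than luminal-led pubertal cells, where 22.2% and 25.7% of all genes were. In the adult 1 was higher and 4 were lower, where 24.9% and 30% of all genes were. These were Ndufs1 (1.00) and Cox5a (-1.25) in puberty and Cyc1 (1.35), Ndufs1 (-2.12), Ndufs7 (-1.55), Ndufa9 (-1.52) and Ndufs3 (-1.45) in the adult. Single cells carried several of these: without the highest cell of each gene, Ndufs1 (0.39) and Cox5a (-0.74) in puberty and Cyc1 (0.50) and Ndufs7 (-0.90) in the adult were within 2-fold, while Ndufs1 (-1.47), Ndufa9 (-1.17) and Ndufs3 (-1.07) in the adult were not. Cyc1 was detected in 23.1% of basal-led and 32.3% of luminal-led adult cells. Of the windows of Ndufs3, 28.2% occur unchanged in other genes, mostly a processed pseudogene, so its count is uncertain. The share was 21.7% for Cox5a and 3.17% for Ndufs1, while Cyc1, Ndufs7 and Ndufa9 had no such windows. Of the mt members, 5 of 12 were 2-fold lower in basal-led pubertal cells and 0 of 12 passed 2-fold in the adult. These are ratios of means, and the highest cell was not left out gene by gene for them. For the mt sum the pubertal ratio was -0.79 by means but -0.23 by medians. Mature luminal-led pubertal cells 158 and 172 had mt sums of 1825860 and 1173560 CPM, against a median of 79710 CPM in their class.

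**Figure D5:**
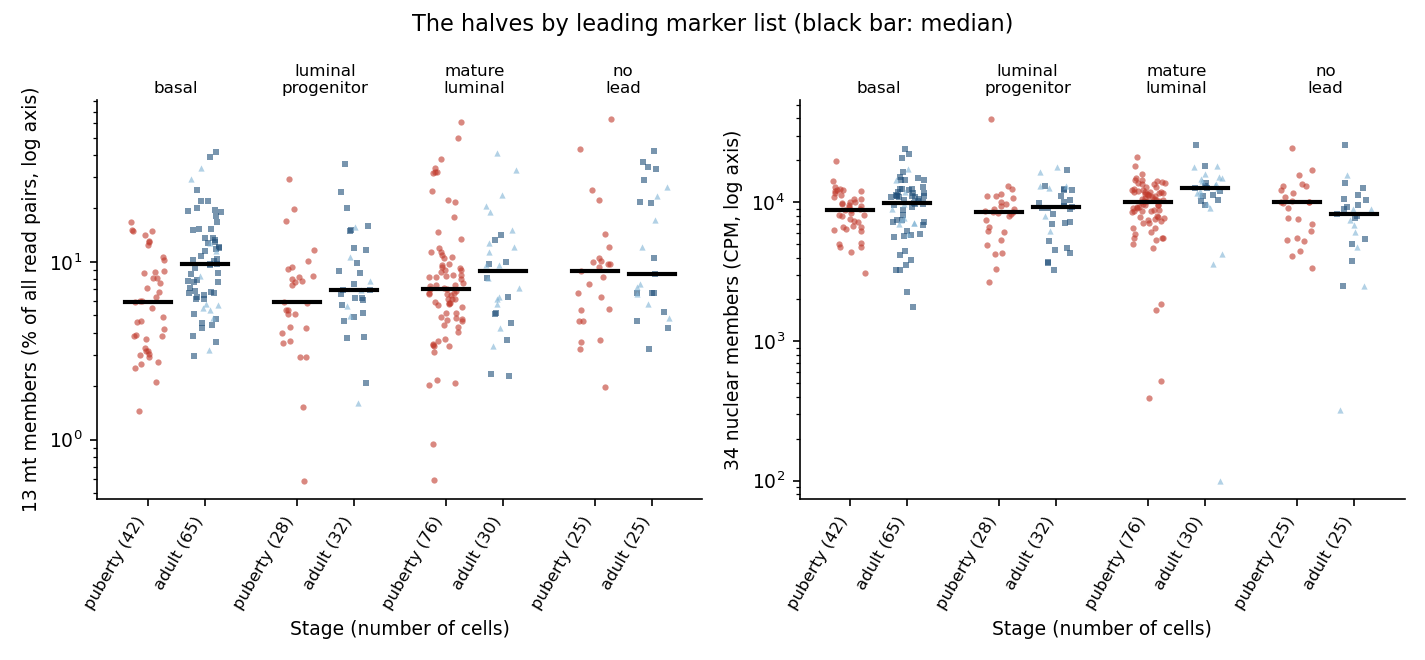
Each point is a retained cell, by leading marker list and stage with the number of cells in brackets; the left panel gives the percent of all read pairs on the 13 mt members and the right panel the summed CPM of the 34 nuclear members (log axes, black bars at the medians; red circles puberty, dark squares adult 48 to 188, light triangles other adult). The medians of the nuclear set lie between 8200 and 12625 CPM in all 8 groups.

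Other genes of the same pathways were taken from lists. Of the other nuclear subunits, 0 of 17 in complex I, 0 of 2 in complex III and 0 of 14 in ATP synthase passed 2-fold between the stages, with medians of 0.14, 0.22 and 0.14. In complex IV 1 of 6 did: Cox7a1, the heart and muscle form of a small subunit, at 39.5 CPM in pubertal and 1.32 CPM in adult cells (log2 ratio 4.13), with 45.1% of its reads in 1 cell. Of 10 genes for mitochondrial transcription and RNA, Twnk, the mitochondrial DNA helicase, was higher in puberty (2.19), and Fastkd2, an RNA-binding protein (-1.93), and Tfb2m, an initiation factor of the mitochondrial polymerase (-1.58), were lower. Against the other adult cells Twnk (0.69) and Tfb2m (-0.82) were within 2-fold. The highest cell of each gene held 42.0% of all Twnk, 27.0% of all Tfb2m and 15.0% of all Fastkd2 reads. Over all genes 19.5% were 2-fold higher and 14.4% lower. The biogenesis regulators had 0 of 3 past 2-fold. Among 9 assembly factors Bcs1l, which inserts the complex III iron-sulfur protein, was lower (-1.92), with 30.4% of its reads in 1 cell.

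The citrate cycle, which feeds the chain, had 3 of 12 genes 2-fold higher in puberty and 0 lower: Fh1, fumarase (1.89), Dlst (1.87) and Ogdh (1.30), both of the oxoglutarate dehydrogenase complex. Glycolysis had 0 of 13 higher and 3 lower: the phosphofructokinases Pfkp (-1.51) and Pfkl (-1.13) and the hexokinase Hk1 (-1.18). Pfkl turned to 2.32 against the other adult cells, while the other 5 of these 6 genes kept their sign against both adult sets. Dlst was within 2-fold against the other adult cells (0.96), as was Hk1 against cells 48 to 188 (-0.84). The highest cell held 36.15% of all Dlst, 32.85% of all Pfkl, 23.4% of all Ogdh and 20.5% of all Hk1 reads. It held 8.85% for Pfkp and 4.4% for Fh1. By share of cells with a read, Ogdh (50.3% in puberty, 52.6% in the adult) and Pfkl (17.0% and 14.5%) ran opposite to their means. Fh1, Dlst, Pfkp and Hk1 did not. The glycolysis count is to be read against the 14.4% of all genes 2-fold lower and the citrate cycle count against the 19.5% higher. The glycolysis list as a whole depended on the adult set. Its median log2 ratio was 0.18 against all adult cells, -0.13 against cells 48 to 188 and 0.97 against the others. Against those others, 6 of 13 glycolysis genes were 2-fold higher in puberty and 2 lower, where 27.9% and 19.9% of all genes were. The citrate cycle had 4 of 12 higher and 0 lower there. Genes known to respond to tissue dissociation also differed with stage: 5 of 14 were 2-fold lower in puberty (Hspa1a, Hsp90aa1, Junb, Hspa8 and Fos), of which Fos and Junb were so against the other adult cells too, and the sum of all 14 had a median of 4540 CPM in pubertal and 7725 CPM in adult cells. Across cells that sum had a rho with the mt set of 0.07 in puberty and 0.22 in the adult, and its part in the mt levels was not tested.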

How the data were processed

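The authors aligned read pairs to mm10 with Subread, counted them per gene with featureCounts and the RefSeq annotation of Rsubread, and deposited raw counts for each cell; versions, strand use and treatment of multiply placed reads were not given in the sources used here, so counts of overlapping, antisense or near-identical genes are uncertain. The combined table held the same counts and was not used. Of 27179 gene identifiers 25275 matched RefSeq (GRCm38.p6), and the others held 1.84% of the read pairs. The 15 mitochondrial genes (13 members and 2 ribosomal RNAs) and 89 ribosomal protein genes were left out of the scale and of the cell minimums (100000 read pairs, 1500 genes, as in the study), which left fewer cells than the study shows. No 2 cells held identical counts. Cells were thinned without replacement to 100000 read pairs (seed 1; Python 3.11.15, numpy 2.4.6, scipy 1.17.1). Ratios used stage means with 1 CPM added, except that sums over a set, complex or class had none; intervals were exact Poisson, Clopper-Pearson or conditional binomial at 95%. edgeR 4.0.16 and DESeq2 1.42.0 (R 4.3.3) gave scaling factors only. Copies of mt members were found with blastn 2.17.0+ on GENCODE vM21 transcripts. Thinning and ratios were tested on simulated data.

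Members and lists were chosen with earlier results of these data known, as was the split of the adult cells. Named were all mt members, the 4 highest and 4 lowest nuclear ratios among members reaching 20 CPM, the nuclear member of each complex with most CPM per kilobase, and list genes past 2-fold. The 2 adult sets, the classes, the scale, the prior, the minimums and single cells were varied.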

Additional observations from a re-analysis of the deposited data

Results flagged for a closer look

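The contrast of basal-led with luminal-led cells in the mt members had opposite signs in the stages: the log2 ratio of mean levels was -0.790 in puberty and 0.246 in the adult. By medians the ratio was -0.228 and 0.369. The adult ratio of means was 0.469 in cells 48 to 188 but -0.091 in the others, so the opposite sign depended on the adult set. The difference between the stages was not tested, since each stage was 1 sample.

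The mitochondrial ribosomal RNAs mt-Rnr1 and mt-Rnr2 lie outside the 47 genes and were measured beside them. Their summed median was 9970 CPM in pubertal cells, 34200 CPM in adult cells 48 to 188 and 11640 CPM in the other adult cells. Across cells their level had a Spearman's rho with the mt members of 0.81 in puberty and 0.60 in the adult, as a description.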

How the results depend on the processing

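No paired analysis was possible because the cell numbers that both stages share name single cells, each stage is 1 sample and no test was run. For the same reason no replicate could be left out. Settings without the cells that carry other markers, without the 8 mt members of the copied stretch, without the highest cell of each class, and those for the 2-fold count, the mt-Co1 share and the correlations were chosen after seeing the data. The stage ratio of the mt members was -0.219 as reported. It was -0.321 on the scale of all read pairs, -0.346 unthinned, -0.564 with minimums of 200000 read pairs and 2500 genes, -0.129 with minimums counted on all genes, -0.228 and -0.198 against adult cells 48 to 188 and the others, -0.313 without the highest cells, -0.404 by medians, -0.344 by TMM, -0.340 by DESeq2 size factors, -0.194 without mt-Atp8, mt-Atp6, mt-Nd4l and mt-Nd4, -0.429 without the copied stretch and -0.108 without cells carrying other markers. For the nuclear members (-0.084) the first 10 of these settings gave, in the same order, -0.016, -0.143, -0.179, -0.071, -0.069, -0.120, -0.097, -0.097, -0.209 and -0.206. For mt over nuclear (-0.135) they gave -0.305, -0.203, -0.385, -0.058, -0.159, -0.077, -0.155 and -0.338, then -0.109, -0.345 and -0.031 for the last 3. The count of nuclear members past 2-fold rose from 0 to 7 against the other adult cells and to 1 (Ndufa10) with the stricter minimums. The correlation of the sets was -0.291 in puberty and -0.250 in the adult on the scale of all read pairs, and the adult value was 0.073 with the stricter minimums and 0.011 in cells 48 to 188. The basal-led over luminal-led ratio of the mt members in puberty (-0.790) was -1.033 and -0.903 with leads of 0 and 0.5, -0.059 by the share of markers detected, -0.402 unthinned, -0.228 by medians and -0.673 without the highest cells. In the adult (0.246) it was 0.083, 0.448, 0.285, 0.315, 0.369 and 0.259 in that order, 0.469 in cells 48 to 188, and turned to -0.091 in the others. For the nuclear members it was -0.147 (lead of 0.5) and -0.038 (share) in puberty, and -0.109 (lead of 0), -0.174 (medians), -0.013 (cells 48 to 188) and -0.336 (the others) in the adult. The cause of these moves was not tested. Of the 47 members, 22 (2 of the 13 mt members) changed sign under at least 1 setting. The medians over members and the mt-Co1 shares moved by less than their spread, though the nuclear median turned from -0.074 to 0.054 against adult cells 48 to 188. The class ratios without the highest cell of a gene were also chosen after seeing the data.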

Other observations

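In 4 cells, picked out after their values were seen, the 34 nuclear members summed to under 1000 CPM: pubertal cells 6 (520 CPM) and 50 (390 CPM) and adult cells 4 (320 CPM) and 21 (100 CPM). They had reads on 2 to 8 of the 34 genes. The mt members took between 23.9% and 38.0% of their read pairs. Malat1 stood at 98310 to 152130 CPM in them, against medians of 16530 CPM over pubertal and 23335 CPM over adult cells.

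At the other end, pubertal cell 140 had 0.595% of its read pairs on the mt members, and pubertal cell 107 had 0.589% with 29800 CPM of markers of other cell types. Both had under 10% of the mt reads on mt-Cytb. In pubertal cell 34, with 43% of its read pairs on the mt members, the markers of other cell types reached 47400 CPM.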
